A study of Caenorhabditis elegans with 6 samples.

Results

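The peaks described here are ELT-3 binding peaks whose highest point, the summit, lay inside an exon of a protein-coding gene on an autosome and away from any promoter. Members were taken from the peak list called on the pooled reads of all replicates. A summit counted when it fell in a coding or untranslated exon, farther out than 1000 bp upstream and 200 bp downstream of every protein-coding 5′ end, and farther than 200 bp from any tRNA, snoRNA or snRNA gene. Of the 14525 pooled peaks, 11595 were autosomal and 2651 were such exonic peaks. The 3141 strongest pooled peaks are called strong here, which is 3 times the size of the authors' final list of reproducible peaks (1047 peaks, called optimal). By that limit 223 exonic peaks were strong and 2428 were weak.

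The assay was chromatin immunoprecipitation followed by sequencing (ChIP-seq), done on whole Caenorhabditis elegans animals at the third larval stage (L3), with both sexes pooled and chromatin sheared by sonication. All samples were of strain OP75, genotype unc-119(ed3) III; wgIs75, in which the transgene carries ELT-3 with GFP and FLAG at its C terminus. The antibody label reads elt-3 and does not say whether the tag or the protein was captured. The 6 libraries formed 1 group of 4 biological replicates, numbered 1, 2, 4 and 5, with replicate 2 sequenced as 3 technical libraries and counted once. There was no second condition, the control came from another experiment and was not analysed here, and no label says that the replicates were grown apart, so part of their spread may be technical. Read depth is unknown, and each replicate list held 30000 ranked regions.

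ELT-3 is a GATA-type zinc finger transcription factor that acts in the epidermis, the tissue that secretes the cuticle and drives molting. GATA factors bind short DNA sites with the core GATA, flanked by preferred bases on both sides. Sites of this kind that control genes lie mostly in promoters and other noncoding DNA, while exons are constrained by what they encode and differ from their surroundings in base composition. Whole-animal chromatin mixes the epidermis with every other tissue.

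Short stretches of 8 strong exonic peaks show what the sequence at these summits looks like. The 8 were chosen among strong exonic peaks on chromosomes II to V whose printed bases are all coding. They are the 4 strongest of these with a GATA motif within 50 bp of the summit and the 4 strongest without. Capitals mark the motif in the first 4 and the summit base in the last 4, and the bases are those of the plus strand of ce11 (WBcel235), taken from its RefSeq sequence.
lin-42 (II, 1239830 to 1239859): aaggaggcgcagAGATAAaagtgcagcgtc
best-7 (IV, 11226727 to 11226756): tcataataatcgTGATAAtcagaatgttct
gst-40 (IV, 762205 to 762234): actccgcgagtaCTATCTcagaatgcgcaa
dos-3 (III, 835960 to 835989): acggattccgggTGATAAtagtatttgtta
F01F1.3 (III, 5874465 to 5874494): ggatggagtgagctgAatattcctgaatgt
icl-1 (V, 726164 to 726193): ctcatcctgcgaagcAacagcagtctggaa
srlf-1 (II, 7790835 to 7790864): aggaggaaaggttgcTgctgactgggctga
glb-15 (V, 11617011 to 11617040): tttgagcgagacgcaAtgaaacggtatgaa
The motif in lin-42, a Period-related gene of developmental timing and molting, was centred 4.5 bp from the summit. The gst-40 motif reads CTATCT on the plus strand and is therefore AGATAG on the other. In dos-3, which encodes a secreted protein that assists Notch signalling, it lay 38.5 bp away.

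In the pooled list, exons were scarce among the strongest ELT-3 peaks and common among the weak ones. In the first of 12 bins of the ranked list, 5.07% of autosomal peaks were exonic (49 of 967, 95% Wilson interval 3.85% to 6.64%). The second bin held 10.6% and the third 19.5%, and the remaining 9 bins held between 23.6% and 29.2%. These shares stand beside the 21.9% of autosomal bases that met the same rule. Over all strong peaks the exonic share was 9.21% (223 of 2421, 8.12% to 10.4%), over weak peaks 26.5% (2428 of 9174, 25.6% to 27.4%), and in the optimal list 5.14% (41 of 797, 3.81% to 6.90%). Intronic peaks went the same way as exonic ones, at 15.3% of strong and 20.8% of weak peaks, against 27.2% of bases. Low shares at the top were thus not particular to exons. Strong intergenic peaks made up 24.7% against 19.9% among weak ones (23.5% of bases), and promoter peaks 46.0% against 31.6% (27.1% of bases). The position of the summit is the rule itself, so these shares are a description, and all intervals here cover counting error only.

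**Figure D1:**
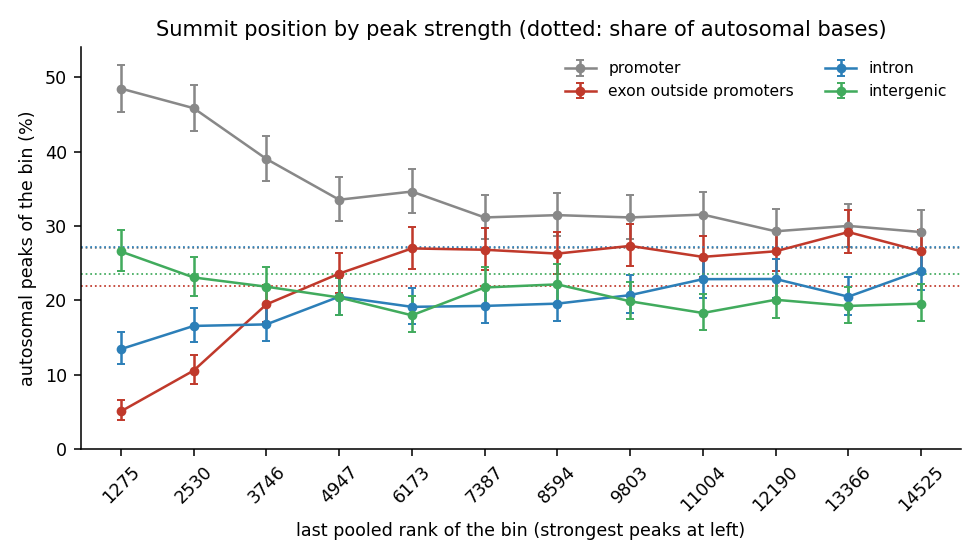
Share of autosomal pooled peaks with summits in promoters, exons outside promoters, introns and intergenic DNA (y axis, %) in 12 bins of the ranked list from strongest to weakest (x axis, last rank of each bin), with Wilson 95% intervals and dotted lines at each class's share of bases. The exonic share starts at 5.07% and reaches 27.0% by the fifth bin, above its base share of 21.9%.

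Of the 2651 exonic peaks, 8.41% were strong, against 20.9% of all autosomal pooled peaks, 16.2% of intronic and 24.6% of intergenic peaks. In the optimal list were 41 of them (1.55%), against 6.87% of autosomal pooled peaks. The authors' signal ran from 107 down to 15.8 with a median of 19.0, and every exonic peak was 336 bp wide. Just inside the strong limit lay peaks in C47F8.1 (signal 26.29, rank 3108), F09E5.14 (26.25, rank 3122) and gln-3, which encodes a glutamine synthetase (26.21, rank 3133). Just outside lay mek-2, a kinase of the Ras pathway (26.11, rank 3164), F46B6.5 (26.07, rank 3176) and ilkp-1 (26.01, rank 3194), so the limit cuts through a continuous range of signal.

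The replicates differed in how many exonic peaks their strongest regions held. Among the 1047 strongest regions of each list, exonic shares of autosomal peaks were 19.1% in replicate 1, 16.5% in replicate 2, 4.59% in replicate 4 and 4.77% in replicate 5 (mean 11.2% ± 7.63, SD, n = 4). At the 3141 strongest they were 22.8%, 21.5%, 10.5% and 10.7% (mean 16.4% ± 6.68, SD, n = 4). At 14525 regions they had closed to 24.5%, 24.2%, 23.0% and 22.0% (mean 23.4% ± 1.15, SD, n = 4). Replicates 1 and 2 thus stood apart from replicates 4 and 5 at the top of the lists and came together further down. At 3141 regions, replicates 1 and 2 were near the 21.9% of autosomal bases that met the rule. Only replicates 4 and 5 were far below it, so the scarcity in the pooled list was not seen at that size in every replicate. Several of the results below, but not all, are given also for peaks found in both replicates of a pair.

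Strong exonic peaks were matched in single replicates at uneven rates. A summit within 100 bp among the 14525 strongest regions was present for 53.8%, 53.8%, 58.7% and 37.7% of them in replicates 1, 2, 4 and 5 (mean 51.0% ± 9.19, SD, n = 4). For strong intronic peaks the same rates were 44.9%, 45.9%, 75.7% and 66.2%, so the exonic rate was higher in replicates 1 and 2 and lower in replicates 4 and 5. The mean difference of −7.17 points did not exceed the spread between replicates (SD 18.6, n = 4, exact two-sided sign-flip permutation test, p = 0.5, smallest possible 0.125). Against strong intergenic peaks the mean difference was −8.29 points (SD 21.0, n = 4, exact sign-flip permutation test, p = 0.5). Among the 223 strong exonic peaks, 18 were matched in all 4 replicates, 49 in 3, 86 in 2, 64 in 1 and 6 in none. Those found in replicates 1 and 2 but not in 4 or 5 made up 9.87%, against 3.78% of strong intronic and 1.68% of strong intergenic peaks. Those found in 4 and 5 but not in 1 or 2 made up 7.17%, against 19.5% and 20.1%. Weak exonic peaks were matched in 24.0% ± 4.29 (SD, n = 4) of cases per replicate, and 0 of 2428 were matched in all 4. Weak intronic and weak intergenic peaks were much the same, at means of 24.3% and 24.6%. Of these, 0 of 1912 and 0 of 1827 were matched in all 4. The pooled list was called on these same reads, so a match is not independent of the list.

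The strongest exonic peak lay in C34C12.2, in the untranslated part of its first exon (III, 3456261 to 3456596, signal 107), and ranked 46 in the pooled list. Its ranks in the lists of replicates 1, 2, 4 and 5 were 288, 214, 17 and 441, so all 4 replicates held it near the top. The second lay in the last exon of ptr-12, a gene of the Patched-related family (I, 2587655 to 2587990, signal 103), with a GATA motif 5.5 bp from the summit. It ranked 20, 80 and 50 in replicates 2, 4 and 5 and was absent from the list of replicate 1. The third, in suro-1 (I, 7872133 to 7872468, signal 102), ranked 22 and 71 in replicates 2 and 4 and was absent from the other two.

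Next came dmd-7, which encodes a DM-domain transcription factor (V, 6247538 to 6247873, signal 98.1), with the motif 4.5 bp from the summit. Its ranks were 119, 27 and 143 in replicates 1, 4 and 5, with no entry for replicate 2. The plin-1 gene, which encodes a perilipin that coats lipid droplets, held 2 of the 20 strongest exonic peaks. The stronger lay in its 3′ untranslated region, 4 bp from an annotated 3′ end (I, 7059172 to 7059507, signal 93.0), and ranked 45, 106, 100 and 254 in replicates 1, 2, 4 and 5. The other lay in its coding sequence (signal 48.0) with ranks of 275, 663, 2377 and 2001. Both were thus present in all 4 lists.

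The 3′ end of snpn-1, the gene for a snapin homologue, carried the sixth strongest exonic peak (IV, 5090093 to 5090428, signal 88.5), 18 bp from an annotated 3′ end and with the motif 2.5 bp from the summit. It ranked 115, 205, 119 and 679 in replicates 1, 2, 4 and 5. F01F1.3 (signal 72.0) ranked 2827, 211 and 33 in replicates 2, 4 and 5. The lin-42 peak (II, 1239681 to 1240016, signal 67.8) ranked 307 and 79 in replicates 4 and 5 but 9856 in replicate 1, and was not listed in replicate 2. The exonic peaks of F01F1.3 and lin-42 were therefore carried mainly by replicates 4 and 5.

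The other hosts among the 20 strongest were of varied function. They were moc-6 (signal 60.1), T28C6.5 (56.7), icl-1 of the glyoxylate cycle (51.8), the bestrophin gene best-7 (51.1), srlf-1 (50.8) and the globin gene glb-15 (50.1). Below these came pgm-1 (49.8), T28F4.4 (49.5), soc-2, a scaffold of Ras signalling (48.5), F46C5.10 (47.2) and the glutathione S-transferase gene gst-40 (46.5). Of the 20, 11 had a GATA motif within 50 bp of the summit. All 20 lay in the optimal list, and they were listed in 14, 16, 19 and 18 of 20 cases by replicates 1, 2, 4 and 5, with median ranks of 843, 596, 307 and 817.5. Over all 223 strong exonic peaks, 145, 140, 152 and 106 were listed, with median ranks of 3710, 3637, 4111 and 4323.5.

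Strong exonic peaks carried a GATA motif somewhat more often than their own flanks, by a margin that did not pass the adjusted threshold. The motif was searched on both strands in its 4 forms, which are AGATAA and its variant AGATAG as well as TGATAA and its variant TGATAG, within 50 bp of the summit and in a window of equal length centred 350 bp to the left. It was present at 27.4% of strong summits (61 of 223, 21.9% to 33.6%) and 17.9% of their flanks (40 of 223, 13.5% to 23.5%). In 50 peaks only the summit held it and in 29 only the flank (exact McNemar test, adjusted p = 0.0715 over 3 sets). With the right flank, at 14.8%, the difference passed (12.6 points, adjusted p = 0.0101, exact McNemar test), as it did with a half-width of 100 bp (11.7 points, adjusted p = 0.0415, exact McNemar test). It did not pass at a half-width of 25 bp, where the excess was 2.69 points (adjusted p = 1, exact McNemar test). Nor did it pass with the 500 bp flank (8.97 points), an exonic flank (10.5 points, 133 peaks), TGATAA alone (7.62 points) or the narrower promoter window (6.50 points), with adjusted p-values from 0.0639 to 0.237 (exact McNemar test). In weak exonic peaks the motif was present in 19.2% at the summit and 19.9% in the flank (exact McNemar test, adjusted p = 0.874). Strong ones exceeded weak ones by 8.16 points (odds ratio 1.59, Fisher's exact test, p = 0.00488). With a half-width of 25 bp that excess was 2.79 points and did not pass (Fisher's exact test, p = 0.198).

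**Figure D2:**
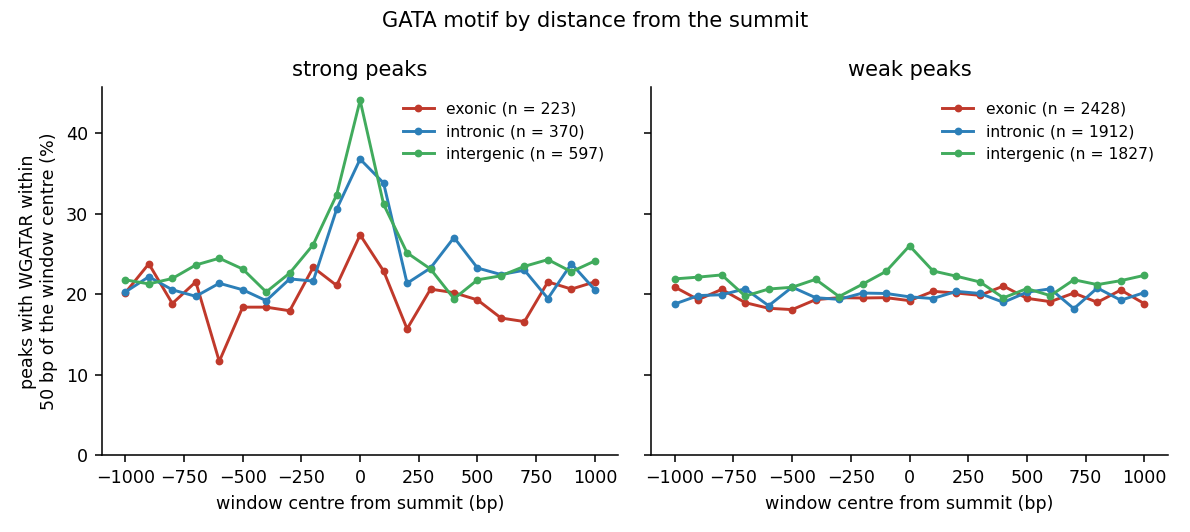
Share of strong (left) and weak (right) peaks with a GATA motif within 50 bp of the window centre (y axis, %) at steps of 100 bp from the summit (x axis, bp), for exonic, intronic and intergenic peaks. Strong exonic peaks reach 27.4% at the summit, below 36.8% for intronic and 44.1% for intergenic peaks, and the weak exonic profile is flat near its summit value of 19.2%.

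The motif was less frequent at strong exonic summits than at the other strong summits outside promoters. Strong intronic peaks held it in 36.8% (19.2% in their left flanks) and strong intergenic peaks in 44.1% (21.9% in their left flanks). The differences from the exonic share were −9.40 points (odds ratio 0.648, adjusted p = 0.0259) and −16.7 points (odds ratio 0.478, adjusted p = 2.7e-05, Fisher's exact test over 4 comparisons). The strong sets were not equal in signal, with medians of 29.9 for exonic, 32.4 for intronic and 35.0 for intergenic peaks. Whether the motif shares differ at equal signal was not tested. Among weak peaks the exonic share was different from the intergenic one by −6.81 points (Fisher's exact test, adjusted p = 5.5e-07) and differed from the intronic one by −0.473 points (adjusted p = 0.699). Neither difference between strong sets passed among peaks found in both replicates of a pair, on 62 and 61 strong exonic peaks. Against intronic peaks it was −1.08 points for replicates 1 and 2 (adjusted p = 1) and −5.02 points for replicates 4 and 5 (adjusted p = 0.556, Fisher's exact test). Against intergenic peaks it was −19.0 points (adjusted p = 0.0735) and −10.6 points (adjusted p = 0.328 by Fisher's exact test). The omission of any replicate, which kept only peaks matched in at least 2 of the others and so 102 to 124 strong exonic peaks, ended the call against intronic peaks in all 4 cases (adjusted p from 0.139 to 0.739, Fisher's exact test). The call against intergenic peaks ended without replicate 2 (−11.3 points, adjusted p = 0.0701) and without replicate 4 (−14.2 points, adjusted p = 0.0597, Fisher's exact test).

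Within the strong exonic peaks, the motif was more frequent in those found in more replicates, a difference that was not tested. Of the 67 found in at least 3 replicates, 37.3% held the motif at the summit and 13.4% in the flank. Of the 156 found in fewer, 23.1% held it at the summit and 19.9% in the flank. For the 61 strong exonic peaks found in both replicates 4 and 5, summit exceeded flank by 34.4 points (exact McNemar test, adjusted p = 3.1e-04). For the 62 found in both replicates 1 and 2, it did so by 17.7 points (exact McNemar test, adjusted p = 0.0752). Leaving out replicates 1, 2, 4 or 5 in turn gave 19.3, 21.9, 17.6 and 14.5 points, each on the 102 to 124 strong exonic peaks matched in at least 2 of the others. It passed in all but the last (exact McNemar test, adjusted p = 0.00574, 0.00327, 0.0118 and 0.0595). The 41 exonic peaks in the optimal list held the motif in 39.0% of summits and 14.6% of flanks, and the other 182 strong ones in 24.7% and 18.7%.

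Motif shares by part of the transcript are given as a description. In strong peaks of 3′ untranslated regions it was present at 34.8% of summits (16 of 46) and 8.70% of flanks (4 of 46). In strong coding peaks it was present at 25.3% of summits (42 of 166) and 18.1% of flanks (30 of 166). The 11 strong peaks in 5′ untranslated regions held it in 3 summits and 6 flanks. These splits were not tested against each other. In the exonic peaks of each replicate's own list at the strong size, summit minus flank was 3.11, −0.914, 4.37 and 6.95 points in replicates 1, 2, 4 and 5 (mean 3.38 ± 3.28, SD, n = 4, exact sign-flip permutation test, p = 0.25). Replicate 2 was the one below 0.

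Strong exonic peaks lay more often in untranslated and terminal exons than exonic bases did, whereas weak ones followed the bases. Of the strong peaks, 20.6% lay in 3′ untranslated regions (46 of 223), against 10.1% of eligible exonic bases (ratio 2.04, exact binomial test, adjusted p = 9.8e-06 over 6 tests). In 5′ untranslated regions lay 4.93% (11 of 223) against 1.25% of bases (ratio 3.95, exact binomial test, adjusted p = 2.7e-04), and in coding sequence 74.4% against 88.6% (ratio 0.840, adjusted p = 2.4e-08). Weak exonic peaks were 89.7% coding, 9.27% in 3′ and 1.03% in 5′ untranslated regions, and none of these passed (adjusted p = 0.154, 0.214 and 0.409, exact binomial test). The 3′ excess of strong peaks was 1.60 times and did not pass without replicate 5 (adjusted p = 0.0709 by the exact binomial test), and was 1.91 times for peaks found in both replicates 1 and 2 (adjusted p = 0.0620). For those found in both 4 and 5 it was 2.43 times (adjusted p = 0.00180, exact binomial test).

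**Figure D3:**
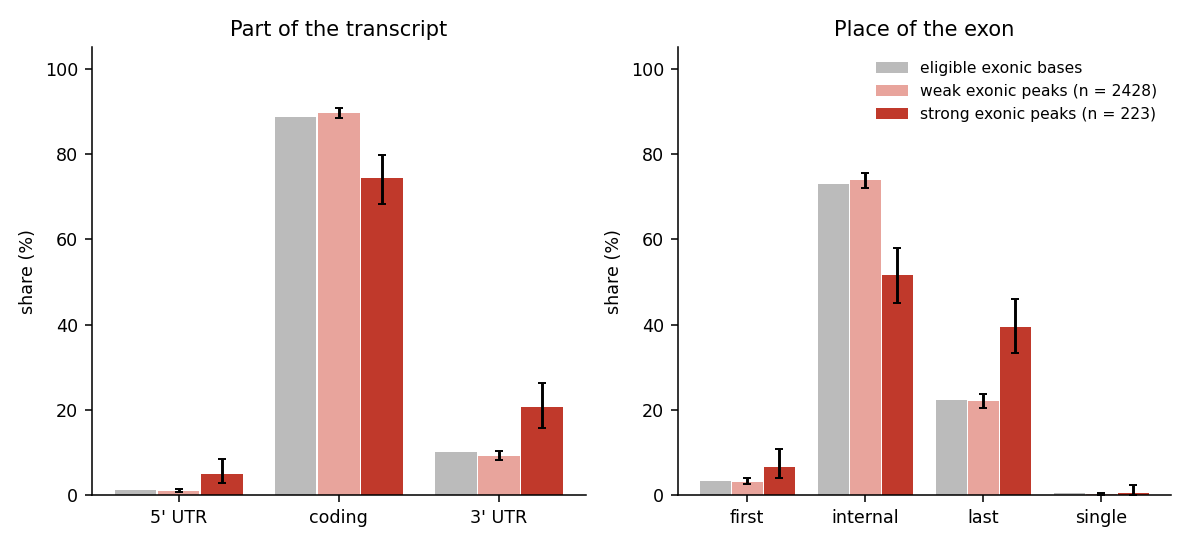
Shares (y axis, %) of eligible exonic bases, weak exonic peaks and strong exonic peaks by part of the transcript (left) and place of the exon (right), with Wilson 95% intervals on the peaks. Weak peaks sit at the base shares, and strong peaks reach 20.6% in 3′ untranslated regions and 39.5% in last exons.

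By exon order, 39.5% of strong peaks lay in last exons (88 of 223) against 22.4% of bases (ratio 1.76, exact binomial test, adjusted p = 4.6e-08 over 8 tests). First exons held 6.73% against 3.24% (ratio 2.08, exact binomial test, adjusted p = 0.0192) and internal exons 51.6% against 73.0% (ratio 0.706, adjusted p = 9.5e-11). For strong peaks found in both replicates 1 and 2, neither last exons (ratio 1.58) nor first exons (ratio 2.99) passed (adjusted p = 0.0562 for each, exact binomial test), while internal exons did. For those in replicates 4 and 5 all of these passed (ratios 2.05, 3.04 and 0.516). Weak peaks did not pass for first, internal, last or single exons, though last exons did without replicate 1 (adjusted p = 0.0212, exact binomial test). Within 200 bp of an annotated 3′ end lay 22.0% of strong peaks (49 of 223), 12.9% of weak peaks and 14.6% of eligible bases. The median distance to the nearest 3′ end was 599 bp for strong peaks, 1079 bp for weak ones and 1061 bp for bases. Distance to the nearest protein-coding 5′ end was similar in all of them, with medians of 1364 bp, 1420.5 bp and 1387 bp. Within 200 bp of a promoter window were 11.7%, 13.1% and 13.4%, so strong exonic peaks were not gathered at the promoter edge. Annotated ncRNA genes overlapped 5 of 223 strong summits (2.24%) and 0.240% of eligible bases.

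Exonic summits were richer in G and C than their flanks, and less so where the flank was exonic too. The median G and C content within 50 bp of the summit was 41.6%, against 37.6% in the left flank (median paired difference 3.96 points, exact sign test, p = 1.2e-61). For the 1435 peaks whose flank centre also lay in an exon, the medians were 41.6% and 40.6% (difference 0.990 points, exact sign test, p = 1.7e-04). Among all 2080 possible 6-mers, 228 were more frequent at the summit (11.0%) and 159 less frequent (7.64%). The most clearly enriched was CATCGA, followed by the 6-mer AATGGA, then by CATCCA. The first of these was present in 7.58% at the summit and 3.96% in the flank (adjusted p = 7.0e-07, exact McNemar test). The most clearly depleted was TAAAAA, with further runs of A and T after it, and it was present at 11.5% and 27.0% (exact McNemar test, adjusted p = 8.6e-44). Of the depleted 6-mers, 126 of 159 had at least 5 A or T bases, and of the enriched ones 0 of 228 did. With exonic flanks, 0 6-mers passed in either direction (exact McNemar test), and 116 of 2080 were below 0.05 without adjustment (5.58%). In the 223 strong exonic peaks alone, 1 was more frequent, AACCAC (10.3% against 1.79%, exact McNemar test, adjusted p = 0.0250), named after its value was seen, and 14 were less frequent. There CATCGA (3.59% at the summit, 5.38% in the flank) and AATGGA (9.87% and 10.3%) went the other way. CATCCA did not (7.62% and 6.73%). TGATAA was present at 16.1% of strong summits and 8.52% of flanks (adjusted p = 0.547, exact McNemar test).

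The exonic peaks were spread over 2233 of 17242 autosomal protein-coding genes, which is 13.0%. Strong exonic peaks were spread over 203 genes, or 1.18%. In 318 genes there were at least 2, and 18 peaks fell in exons of 2 genes. Set against eligible exonic sequence, the density over all genes was 14.7 per 100 kb. Weak peaks were more frequent than bases on chromosome I (577 of 2428, ratio 1.24, exact binomial test, adjusted p = 1.8e-07 over 10 tests). They were less frequent on IV (15.4% of weak peaks, where 18.6% of bases lay, adjusted p = 2.3e-04 by the exact binomial test) and on V (ratio 0.893, adjusted p = 0.00655). For weak peaks found in both replicates 4 and 5 the ratio was 0.945 on I and 1.33 on V, both the other way and neither past the threshold. For those found in both replicates 1 and 2 it was 1.71 on I (adjusted p = 0.0160, exact binomial test). On V it was 0.742 and did not pass (adjusted p = 0.475, exact binomial test).

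The gene with the most exonic peaks was lrp-1 (WBGene00003071, I, 7614176 to 7634143), which encodes a megalin-related receptor of the LDL receptor family that acts in the epidermis and is needed for molting. It held 14, of which 5 were strong, with signals from 39.8 down to 17.2. They were spread from 2764 bp to 19116 bp along the 19968 bp of the gene, with a median spacing of 1035 bp, and all lay in coding sequence. None was in the optimal list, and 2 of the 14 had a GATA motif within 50 bp. By replicate, 7 of the 14 were matched in 2 lists, 4 in 1 and 3 in none. The lists of replicates 1, 2, 4 and 5 themselves held 15, 7, 5 and 2 exonic regions in lrp-1. Every replicate therefore held exonic regions in the gene, no pooled peak in it was matched in more than 2 lists, and replicate 1 held the most.

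**Figure D4:**
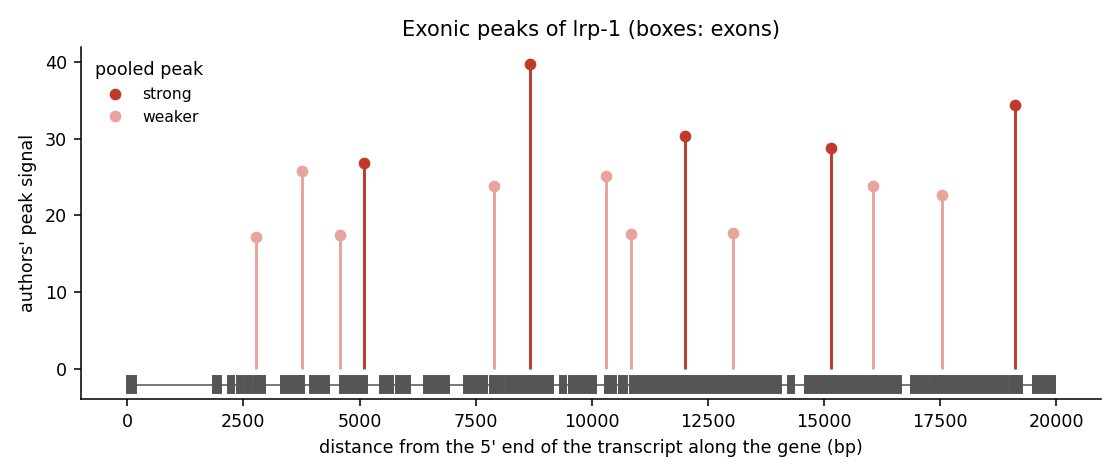
The 14 exonic peaks of lrp-1 by distance from its 5′ end (x axis, bp) and authors' signal (y axis), with exons as boxes. The 5 strong peaks, up to 39.8, are scattered among the 9 weaker ones along the whole coding length.

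Next by count came lrp-2, the paralogue of lrp-1. It held 8, all weak, and 7, 2, 10 and 7 regions in the lists of replicates 1, 2, 4 and 5. In ncl-1, a TRIM-NHL gene that limits nucleolar size, there were 6 with 3 strong (strongest 35.9). In let-805, which encodes myotactin of the epidermal attachments to muscle, there were 6, all weak (strongest 22.9), and 2, 3, 8 and 4 regions in the single lists. Genes with 5 were mml-1, a Myc and Mondo-like transcription factor gene (1 strong, signal 30.4), metr-1, the methionine synthase gene (2 strong, 29.9), and the molting gene mlt-11 (none strong, 24.9). These counts do not allow for exon length. Per 10 kb of eligible exon, mml-1 held 14.8, ncl-1 14.4 and metr-1 13.1. By the same measure lrp-1 held 9.64, lrp-2 5.44, mlt-11 5.20 and let-805 4.32, so the order by density was another.

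Genes of the epidermis and cuticle held exonic peaks at a higher density than the average over all genes, in all 4 replicates. Of 35 autosomal genes on the epidermis list, 19 held at least 1 (54.3%, against 13.0% of all genes). Such shares of genes do not allow for exon length. Body wall muscle (52.2%) and basement membrane genes (58.3%) had similar shares, at only 15.1 per 100 kb of eligible exon each. The 43 peaks of the epidermis list made 31.3 per 100 kb, against 14.7 over all genes. With each replicate's own exonic regions the epidermis density was 32.0, 25.5, 26.2 and 24.7 per 100 kb in replicates 1, 2, 4 and 5 (mean 27.1 ± 3.33, SD, n = 4). Over all genes it was 16.0, 15.9, 14.6 and 14.0 (mean 15.1 ± 0.974, SD, n = 4), so the lists' ranges did not overlap. The same was true of cuticle collagens, ribosomal proteins, chaperones and intestine genes, so it was not particular to the epidermis list. For ribosomal proteins the margin was narrow, at 16.5 in replicate 1 against 16.0 over all genes in that replicate. Ribosomal proteins and intestine genes held only 6 pooled exonic peaks each, so for these lists the separation rests on few peaks. The ratio of epidermis to all genes averaged 1.79 ± 0.166 (SD, n = 4). The lists were chosen with earlier results known, and their counts were not tested.

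Within the epidermis list, mlt-10, a gene needed for molting, held the strongest exonic peak (signal 35.0), which ranked 219 and 441 in replicates 1 and 2 and 27518 and 19897 in replicates 4 and 5. The apical matrix gene noah-1 held 4, of which 3 were strong (strongest 34.6), and its single lists held 2, 4, 1 and 0. In phy-2, which encodes a subunit of the prolyl hydroxylase that matures collagens, the stronger of 2 (signal 29.2) lay in the 3′ untranslated region and ranked 1066 and 2271 in replicates 4 and 5. The list's remaining strong peak lay in blmp-1, a zinc finger regulator of molting timing (28.3). Genes with several weak peaks included mlt-11 with 5, vab-10, a spectraplakin of the epidermal attachments, with 4, and the matrix receptors mua-3 and mup-4 with 3 each. Per 10 kb of eligible exon, mlt-11 held 5.20, vab-10 1.74, mua-3 2.60 and mup-4 4.52. The density over all genes was 14.7 per 100 kb, so vab-10 lay near it. The list's 16 genes with none included noah-2, mlt-7, mlt-8, lin-26 and the antimicrobial peptide genes nlp-29 and nlp-31, some of which have little eligible exon (222 bases in nlp-29).

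**Figure D5:**
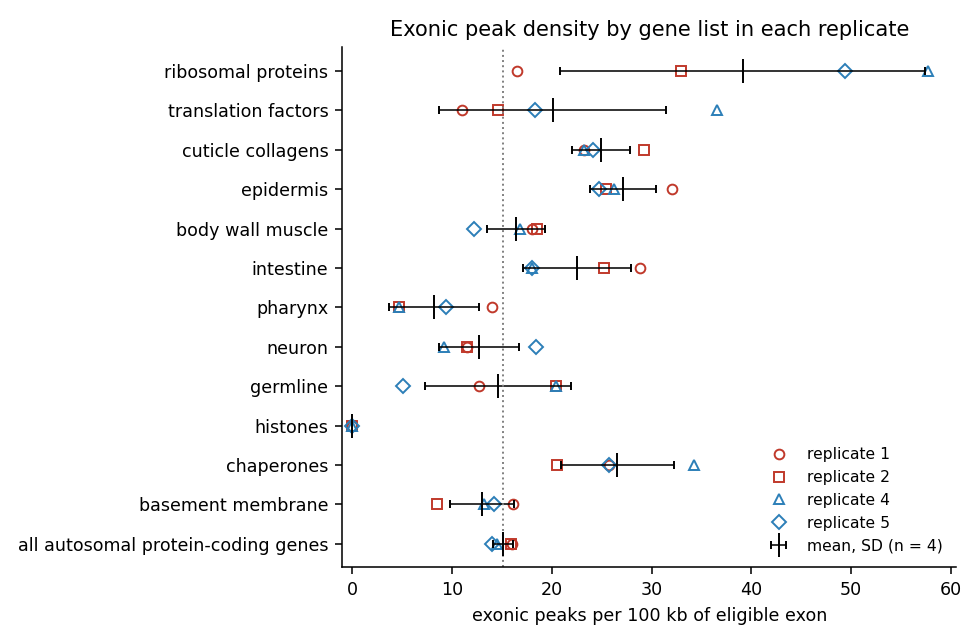
Exonic regions per 100 kb of eligible exon (x axis) for each gene list (y axis) in the list of each replicate, with the mean and SD of 4 replicates and a dotted line at the mean of all genes, 15.1. Epidermis and cuticle collagens lie above that line in all 4 replicates with little spread, while ribosomal proteins range from 16.5 to 57.6.

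Cuticle collagens held exonic peaks in 25 of 146 genes, at 25.8 per 100 kb. In the single lists the density was 23.2, 29.3, 23.2 and 24.1 (mean 24.95 ± 2.90, SD, n = 4), above all genes in all 4. The strongest were in dpy-4 (signal 32.7, listed in replicate 2 alone), col-123 (27.4, replicates 1 and 2) and col-49 (24.2, replicates 4 and 5). Each collagen peak was thus shared by 2 replicates at most in these examples.

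Genes of protein synthesis and folding were also dense. Ribosomal proteins had 6 hosts of 76 (7.89%, below the 13.0% of all genes). On only 12.1 kb of eligible exon their 6 peaks made 49.4 per 100 kb. In the single lists the density was 16.5, 32.9, 57.6 and 49.4. The strongest were in rps-11 (24.9), rps-27 (24.5) and rpl-24.2 (22.7), and none was strong. Translation factors reached 32.9 per 100 kb with 8 hosts of 36, led by eif-2Bdelta (26.4), but were above all genes in 2 of 4 single lists. Chaperones reached 20.6 with 11 hosts of 57, led by the Hsp70 gene hsp-1 (32.2), hsp-90 (28.3) and enpl-1 (25.2), and were above all genes in all 4 single lists (mean 26.6 ± 5.69, SD, n = 4).

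Markers of other tissues and the basement membrane genes ranged from 6.92 to 21.6 per 100 kb. Intestine genes had 21.6 per 100 kb from 6 hosts of 20, led by the protease gene asp-1 (24.3), the desaturase gene fat-2 (22.6) and ifo-1 (22.0), and lay above all genes in all 4 single lists (mean 22.5 ± 5.40, SD, n = 4). Body wall muscle genes had 15.1 per 100 kb from 12 hosts of 23, among them the myosin gene unc-54 (26.8), the ryanodine receptor gene unc-68 (25.8) and unc-89 (24.7). Basement membrane genes had 15.1 from 7 hosts of 12, led by the laminin genes lam-3 (26.8) and lam-1 (24.8) and by ost-1 (23.8). Pharynx genes had 14.1 from 2 hosts of 16, germline genes 12.7 from 4 of 24 and neuronal genes 6.92 from 3 of 22. On so few peaks these densities moved in the single lists, to means of 8.20 ± 4.49, 14.6 ± 7.32 and 12.7 ± 3.99 (SD, n = 4), which changes their order. Pharynx, germline and neuronal genes were above all genes in 0, 2 and 1 of the 4 lists. Body wall muscle (mean 16.4 ± 2.90) and basement membrane genes (13.0 ± 3.22, SD, n = 4) were so in 3 and 2. Named among these were myo-1 (24.6), pha-4 (16.9), glh-1 (19.9), puf-5 (18.5), unc-47 (19.0) and egl-21 (18.4), all weak. The 68 autosomal histone genes held none, with only 0.959 kb of eligible exon. None of the 12 lists held an exonic peak of the optimal list. Those peaks were spread over 40 other genes and made 0.225 per 100 kb of eligible exon over all genes. The largest list, body wall muscle, had 172 kb, so a count of 0 says little about any single list. Transcript levels were not measured, so whether the densities move with transcription was not tested.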

How the data were processed

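ChIP-seq peak lists of 6 libraries (4 replicates) were used, all on ce11. The authors called peaks in each replicate and on pooled reads, and kept those passing the irreproducible discovery rate procedure as the optimal list, per the file headers. Each peak has a deposited signal, the authors' peak strength, which was compared only within 1 list. The list of replicate 2 was assigned from the deposited listings of its 3 libraries. The aligner, the caller and the read depth were not given in the sources used here. Coordinates are 1-based on ce11, whose assembly is WBcel235, with Ensembl release 115 annotation and RefSeq sequence.

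Exonic peaks, parts and exon order were assigned by summit, each base going to coding, then 3′ and then 5′ untranslated sequence, and order following the longest transcript. Eligible bases are those a member could occupy. Adjustment was by the Benjamini and Hochberg method over each family of tests, at 0.05. Alternatives were other promoter windows, motif windows, flanks, strong limits and match distances, and leaving out each replicate. Single-list densities and pairs of replicates were added after seeing the data. Single-list densities and counts per gene used the 14525 strongest regions of each replicate list. The 6-mer test was tested on simulated data, in which summit and flank windows had the same base composition. That check therefore cannot speak to calls that come from a difference in composition. Named genes were hosts of the 20 strongest members, the 3 members on each side of the strong limit, the 5 genes with most members (at a tie, the strongest) and up to 3 genes per list with the strongest member. Other names were chosen after their values were seen. The members and the 12 lists were chosen with earlier results of these data known. Python 3.11.15, scipy 1.17.1 and pandas 2.3.3 were used.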

Additional observations from a re-analysis of the deposited data

Results flagged for a closer look

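Of 25 quantities with a value in each of the 4 replicates, 1 had a replicate far from the other three. The density of exonic regions in cuticle collagen genes was 29.3 per 100 kb in replicate 2, against 23.2, 23.2 and 24.1 in replicates 1, 4 and 5. Chance flags about 1 in 20 such groups, and why replicate 2 was higher was not tested.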

How the results depend on the processing

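Promoter windows of 500 bp upstream to 100 bp downstream and of 2000 bp to 500 bp gave exonic shares of 11.4% and 6.61% among strong and 31.1% and 18.6% among weak autosomal peaks. A strong limit at the optimal size gave 5.14% and 24.2%. The mean share over replicate lists was 16.4% at the strong size and 24.9% at 30000 regions.

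The motif excess of strong exonic summits over flanks was 14.5 to 21.9 points when each replicate was left out, 2.69 points with a half-width of 25 bp, 6.50 points with the narrower promoter window, 8.97 points with the 500 bp flank, 11.7 points with a half-width of 100 bp, 12.6 points with the right flank and 34.4 points for peaks in replicates 4 and 5. For weak ones it changed sign at half-widths of 25 bp (0.0412) and 100 bp (1.07) and with the 500 bp flank (1.11), and was −9.16 to −3.32 points without single replicates, passing as a deficit without replicate 2 (exact McNemar test, adjusted p = 0.0231). For all exonic peaks it changed sign with the right flank (−0.453), an exonic flank (−0.767) and peaks in replicates 1 and 2 (−0.637), and ranged from −0.529 to 3.16 points without single replicates.

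Against strong intronic peaks the motif difference was −9.25 to −3.60 points without single replicates, losing its call in all 4 cases, and was −1.08 and −5.02 points for peaks in replicates 1 and 2 or 4 and 5, losing it in both. Against strong intergenic peaks it was −14.7 to −11.3 points without single replicates, losing its call without replicates 2 and 4, and −19.0 and −10.6 points for the pairs, losing it in both. For weak peaks the intergenic difference was −14.7 to −7.09 points, losing its call without replicate 4, and −6.24 points for peaks in replicates 1 and 2. The weak intronic difference changed sign at 100 bp (2.13). Strong exceeded weak by 2.79 points at 25 bp. The weak support difference from intronic peaks changed sign at a match of 50 bp (0.324) and ran from −0.738 to 0.150 points without single replicates, and from intergenic peaks from −1.79 to 1.22.

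The G and C difference of strong peaks fell to 0.990 points with exonic flanks. Enriched and depleted 6-mers numbered 0 and 0 with exonic flanks and 1 and 14 in strong peaks. Exon order passed in 1 of 8 tests for peaks in replicates 1 and 2, with first and last exons of strong peaks lost. Chromosome tests past the threshold numbered 3 against shares of bases, 7 against shares of genes, 1 and 0 for the pairs and 1 to 2 without single replicates. The weak ratio on V ran from 0.867 to 1.08 without single replicates and was 1.33 in replicates 4 and 5, where the ratio on I was 0.945. In replicates 1 and 2 the weak ratio was 0.742 on V and 1.71 on I. Lists denser than all genes numbered 8 for all exonic peaks, 4 for strong and 0 for optimal ones, which were few (0.225 per 100 kb over all genes). The cause of these changes was not tested, and leaving out replicates or pairing them also left fewer peaks. Read depth is unknown and limits every share by an unknown amount.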
